A study of Arabidopsis thaliana with 12 samples.

Results

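The WRKY family of Arabidopsis thaliana was followed at 60 member loci, chosen by locus code from the genes of this family. Counts of members below are of these 60 loci, which were not checked to be the whole family. The loci were read in the leaf transcriptomes of a catalase mutant that also carried a mutation in 1 glycolate oxidase gene. All 60 loci were among the 33602 loci counted, and 48 of the 60 had enough reads to be tested. The groups were cat2 gox2 after high light, cat2 gox2 under high CO2, cat2 gox1 after high light and cat2 gox1 under high CO2, each with 3 libraries. Both lines are Columbia-0 plants with the cat2-2 allele of CATALASE 2 (CAT2), the main leaf catalase, and with a mutation in GLYCOLATE OXIDASE 2 (GOX2, line cat2-2 gox2) or GLYCOLATE OXIDASE 1 (GOX1, line cat2-2 gox1). Glycolate oxidases make hydrogen peroxide from photorespiratory glycolate in peroxisomes, and catalase removes it. Plants grew for 3 weeks at 3000 ppm CO2, which holds photorespiration down, in light of 120 µmol m-2 s-1. They were sampled there or after 3 h of ambient air (400 ppm CO2) in light of 1200 µmol m-2 s-1. Light, CO2, growth chamber, air humidity and elapsed time changed together and cannot be told apart, so high light stands here for the whole change. No group had an intact CAT2, so responses that need the loss of catalase cannot be told apart from those that do not. Leaves of 15 plants were pooled for each library, and the comparisons ask how each line answered the shift and whether the lines differed.

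WRKY proteins are plant transcription factors named after a conserved heptad in their DNA-binding domain, which is followed by a zinc finger. They bind W boxes, short promoter elements with the core TGAC, and many WRKY promoters hold W boxes themselves, so that members regulate each other. In leaves they are known for roles in pathogen defence, senescence, heat and oxidative stress, and nutrient supply, downstream of mitogen-activated protein (MAP) kinases and hydrogen peroxide. Structural group I has a pair of WRKY domains, groups IIa to IIe have 1 domain with the same type of zinc finger, and group III has another type of zinc finger.

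The libraries held 19571516 to 25314811 counts. Levels below are CPM, read counts normalised to library size and composition, on which scale 1 count was worth 0.0397 to 0.0526 CPM. As a check of the lines, GOX1 averaged 991 and 2062 CPM in cat2 gox2 after high light and under high CO2, against 156 and 261 CPM in cat2 gox1. GOX2 had 7.48, 122 and 6.98 CPM in the cat2 gox2 libraries after high light and averaged 16.7 CPM under high CO2, against 558 and 1103 CPM in cat2 gox1, so library 2 of cat2 gox2 after high light stands apart for this gene. The number 3 libraries, from the third repeat of the set-up, stood apart under high CO2: for 33 of 48 members in cat2 gox2 and 39 of 48 in cat2 gox1 number 3 was the highest of the 3 libraries, against 39.96% and 43.7% of all genes tested. Leaf mesophyll markers summed to 19342 to 35030 CPM after high light, against 44241 to 77912 CPM in high CO2 air. All 5 were lower after high light in both lines, whereas the root markers PYK10, RHD6 and EXPA7 summed to at most 0.335 CPM. The part of cell composition in the WRKY changes was not tested, and in whole leaves fewer cells of a type and less RNA per cell cannot be told apart.

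The sequences shown first are the coding bases of the heptad, because the family is defined by it, with the codon of its sixth residue in capitals. A heptad was found once in 50 members and at 2 places in 10. Those 10 all belong to group I, where WRKY10, the remaining member of 11, had 1. The sixth residue is glutamine in all heptads found except those of WRKY50 and WRKY51, where it is lysine. The bases are from RefSeq, build TAIR10.1.
WRKY33 first domain, chr2:16109358-16109378, plus strand: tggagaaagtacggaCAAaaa
WRKY33 second domain, chr2:16109982-16110002, plus strand: tggagaaaatacggcCAGaaa
WRKY11, chr4:15290359-15290379, minus strand: tggaggaagtacggaCAAaaa
WRKY51, chr5:25908864-25908884, plus strand: tggaggaagtatggcAAGaaa
WRKY50, chr5:9147579-9147599, minus strand: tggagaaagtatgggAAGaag

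The 250 bases before the annotated gene start are shown next for members whose levels carry the results below, with W boxes in capitals. The letters searched were TTGACC and TTGACT on either strand, so that GGTCAA and AGTCAA mark the opposite strand, and these do not overlap each other. WRKY33, WRKY30 and WRKY15 rose in both lines and hold more than 1 W box, WRKY11 had a difference between the lines with a small error, and WRKY53 and WRKY41 shared the longest run of bases of any pair of the 60 windows, 19 bases with a W box in it, against a median of 9 over 1770 pairs. WRKY40, which rose more than WRKY33 in both lines, is shown as a window with no W box. In the other windows the W boxes began 32 to 219 bases before the gene start. These windows are from the RefSeq annotation of TAIR10.1, strand as the gene reads.
WRKY33, chr2:16107985-16108234, plus strand: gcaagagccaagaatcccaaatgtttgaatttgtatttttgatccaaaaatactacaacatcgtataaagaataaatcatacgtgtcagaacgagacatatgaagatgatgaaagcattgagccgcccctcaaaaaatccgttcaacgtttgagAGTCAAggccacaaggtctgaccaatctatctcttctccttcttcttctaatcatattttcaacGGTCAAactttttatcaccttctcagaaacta
WRKY30, chr5:8154711-8154960, minus strand: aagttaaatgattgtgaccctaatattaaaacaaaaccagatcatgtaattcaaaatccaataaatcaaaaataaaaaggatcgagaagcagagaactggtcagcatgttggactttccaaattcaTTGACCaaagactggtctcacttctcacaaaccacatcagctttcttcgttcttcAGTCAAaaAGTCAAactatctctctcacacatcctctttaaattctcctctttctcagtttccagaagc
WRKY15, chr2:9924636-9924885, plus strand: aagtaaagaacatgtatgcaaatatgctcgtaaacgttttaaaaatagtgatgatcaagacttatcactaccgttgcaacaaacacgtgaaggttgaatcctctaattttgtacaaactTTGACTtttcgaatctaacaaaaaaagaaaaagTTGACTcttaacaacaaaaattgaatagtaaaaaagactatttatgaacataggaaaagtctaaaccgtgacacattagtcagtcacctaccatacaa
WRKY11, chr4:15291935-15292184, minus strand: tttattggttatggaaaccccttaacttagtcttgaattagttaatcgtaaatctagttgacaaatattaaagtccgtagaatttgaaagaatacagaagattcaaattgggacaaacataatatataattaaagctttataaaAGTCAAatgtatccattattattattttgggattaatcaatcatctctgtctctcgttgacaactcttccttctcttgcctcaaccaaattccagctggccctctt
WRKY53, chr4:12393983-12394232, minus strand: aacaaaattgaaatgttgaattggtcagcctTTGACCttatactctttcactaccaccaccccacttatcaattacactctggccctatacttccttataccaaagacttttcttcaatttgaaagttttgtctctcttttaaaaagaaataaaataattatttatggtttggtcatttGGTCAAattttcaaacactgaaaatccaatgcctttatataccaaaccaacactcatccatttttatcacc
WRKY41, chr4:6758848-6759097, plus strand: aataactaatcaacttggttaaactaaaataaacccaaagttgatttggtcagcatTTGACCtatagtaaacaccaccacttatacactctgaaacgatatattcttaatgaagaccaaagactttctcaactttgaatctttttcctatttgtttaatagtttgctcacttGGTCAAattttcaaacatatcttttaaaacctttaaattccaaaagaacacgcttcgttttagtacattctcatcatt
WRKY40, chr1:30383311-30383560, plus strand: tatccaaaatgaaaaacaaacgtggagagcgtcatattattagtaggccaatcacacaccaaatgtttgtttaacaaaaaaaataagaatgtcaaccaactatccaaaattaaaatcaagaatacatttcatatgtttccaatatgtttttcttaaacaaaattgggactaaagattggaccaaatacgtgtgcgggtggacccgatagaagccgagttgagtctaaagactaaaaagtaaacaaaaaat

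At least 1 W box stood in this window in 23 of 60 members (38.3%) and in 28.4% of 27443 protein-coding genes, and at least 2 stood in 10 members (16.7%) and in 6.18% of all. WRKY30 had 3, and WRKY15, WRKY17, WRKY29, WRKY32, WRKY33, WRKY41, WRKY45, WRKY53 and WRKY62 had 2 each. Of the 23 members that were higher after high light in both lines, 12 had a W box (52.2%), against 6 of the 25 other tested members (24%) and 5 of the 12 that were not tested (41.7%). Among the 23, WRKY28, WRKY41, WRKY55, WRKY63, WRKY67 and WRKY75 passed the filter on low counts only because of the high light libraries. A rise in at least 1 line was thus built into their being tested, and all of them but WRKY63 had a W box. WRKY63, WRKY40, WRKY48 and WRKY6, with some of the largest rises, had none in this window, nor had WRKY7 and WRKY22. These shares describe letters in a window, and no binding was measured.

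Many WRKY genes that had enough reads to test were higher after high light, in both lines. In cat2 gox2, 29 of 48 rose, against 27.7% of all 18967 genes tested, and 4 fell, against 29.2% of all, so that 33 changed, against 56.9% of all. In cat2 gox1, 25 of 48 rose, against 25.6% of all genes tested, and 5 fell, against 26.5% of all, so that 30 changed, against 52.1% of all. The median log2 change of the 48 members was 1.31 in cat2 gox2 and 1.08 in cat2 gox1, while that of all genes tested was -0.09 and -0.06. A change of at least 16-fold upward was seen in 13 members of cat2 gox2 and 9 of cat2 gox1, against 3.20% and 2.17% of all genes. These calls are from edgeR's quasi-likelihood test at an adjusted p below 0.05 over all genes.

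The 2 lines shared most of these calls. There were 27 members called in both lines, 23 of them higher and 4 lower, and none was called in opposite directions. WRKY7, WRKY8, WRKY17, WRKY22, WRKY38 and WRKY70 were called in cat2 gox2 alone, and WRKY29, WRKY42 and WRKY65 in cat2 gox1 alone. Without the number 3 libraries of both high CO2 groups WRKY8, WRKY22, WRKY38 and WRKY70 were called in cat2 gox1 too, and in cat2 gox2 leaving out single libraries ended the call of WRKY8 in 4 and of WRKY38 in 8 of 12 fits. In cat2 gox1 such fits ended the call of WRKY65 in 7 of 12. That call was also lost with upper-quartile scaling, with a stricter filter, with only the groups compared and without those number 3 libraries. A call in 1 line does not show that the lines differed, which was tested separately below. The remaining 12 tested members were called in neither line. Summed over all 60 members, cat2 gox2 had 3623, 3201 and 3557 CPM after high light, against 416, 359.7 and 494 CPM under high CO2. The same sum in cat2 gox1 was 1748, 1994 and 1993 CPM after high light, against 377, 373 and 596 CPM under high CO2. In these sums each high light library was above each high CO2 library, and each high light library of cat2 gox2 was above those of cat2 gox1. A few members carry much of the sums: WRKY33, WRKY11 and WRKY15 averaged 890, 518 and 331 CPM in cat2 gox2 after high light. Over the 48 tested members the median log2 difference between the lines after high light was 0.08, with 26 of 48 above 0.

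Filtering and the third repeat bear on these counts. WRKY28, WRKY41, WRKY42, WRKY55, WRKY63, WRKY67 and WRKY75 passed the filter on low counts only because of the high light libraries, so a rise in at least 1 line was built into their being tested, also where they enter the counts and medians of roles and structural groups below. Among the 41 members that would pass on their high CO2 libraries alone, 23 rose and 4 fell in cat2 gox2, and 18 rose and 5 fell in cat2 gox1. Of all genes that passed the full filter, 27.7% rose and 29.2% fell in cat2 gox2, and 25.6% rose and 26.5% fell in cat2 gox1. Within repeats 1, 2 and 3 the median log2 change over members was 1.15, 1.52 and 1.06 in cat2 gox2 and 1.47, 1.32 and 0.82 in cat2 gox1. Without the number 3 libraries of both high CO2 groups, 32 of 49 members rose and 3 fell in cat2 gox2, and 32 rose and 1 fell in cat2 gox1. Calls over all genes moved too: 6284 of 19099 rose and 5545 fell in cat2 gox2, and 6425 rose and 4932 fell in cat2 gox1. With all libraries 5260 of 18967 genes rose in cat2 gox2 and 4858 in cat2 gox1. The 12 members not tested were WRKY9, WRKY10, WRKY12, WRKY14, WRKY24, WRKY31, WRKY56, WRKY61, WRKY62, WRKY64, WRKY72 and WRKY74, with 0 to 90 counts over all 12 libraries and at most 0.645 CPM in any library.

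**Figure D1:**
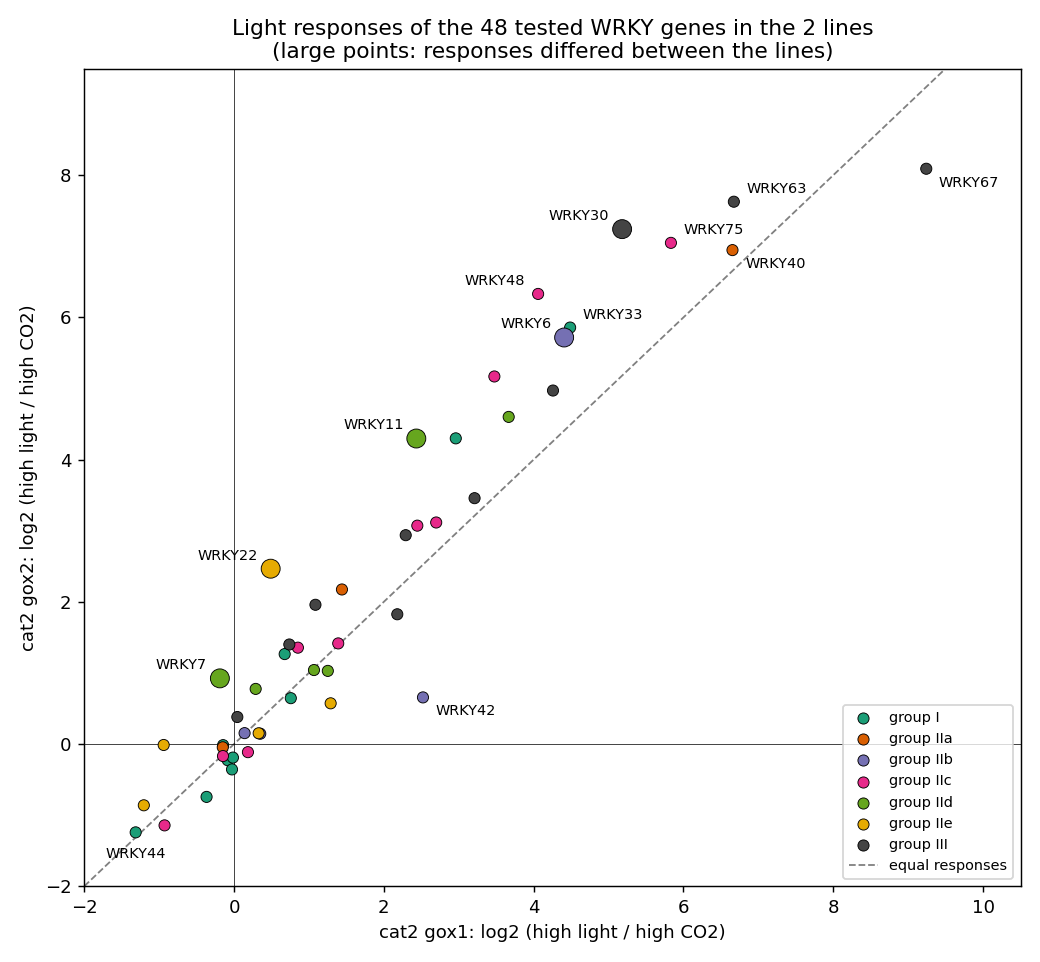
Log2 change of each of the 48 tested WRKY genes after high light relative to high CO2 in cat2 gox2 (vertical axis) against cat2 gox1 (horizontal axis), coloured by structural group. Large points are the 5 genes whose responses differed between the lines, all above the dashed line of equal responses. WRKY67 had no counts under high CO2, so its position depends on the fit and its true change has only a lower bound.

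WRKY33 (AT2G38470, chr2:16108235-16110766, 5 exons, plus strand, TAIR10.1) was the most abundant member per length of transcript after high light, at 439 CPM per kb in cat2 gox2 and 198 CPM per kb in cat2 gox1. It is a group I factor that is phosphorylated by MPK3 and MPK6 and drives synthesis of camalexin, the main antimicrobial compound of Arabidopsis. It had 959, 794 and 916 CPM in cat2 gox2 after high light, against 14.7, 9.59 and 21.8 CPM under high CO2. The cat2 gox1 libraries held 355, 425 and 428 CPM after high light, against 13.6, 12.7 and 27.4 CPM under high CO2. The high light libraries were far above the high CO2 libraries in both lines, and those of cat2 gox2 were all above those of cat2 gox1. Its log2 change was 5.86 (SE 0.387, edgeR adjusted p = 4.31e-07) in cat2 gox2 and 4.49 (SE 0.363, adjusted p = 3.19e-06) in cat2 gox1. The heat tolerance genes WRKY25 and WRKY26 belong to the same group, and WRKY25 averaged 271 ± 27.1 CPM in cat2 gox2 after high light and 13.8 ± 4.40 CPM under high CO2 (SD, n = 3 each). WRKY26 did not pass in either line (log2 1.27, adjusted p = 0.107 in cat2 gox2; log2 0.68, adjusted p = 0.371 in cat2 gox1), but it passed in cat2 gox2 with the repeat as a block. It passed in both lines without the number 3 libraries of both high CO2 groups, and also without all number 3 libraries.

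The 3 members of group IIa, WRKY18, WRKY40 and WRKY60, form homo- and heterodimers and are known as repressors of basal defence and of abscisic acid responses. WRKY40 (AT1G80840) had 314, 199 and 264 CPM in cat2 gox2 after high light, against 2.26, 0.885 and 3.14 CPM under high CO2. The levels in cat2 gox1 were 209.9, 281 and 213 CPM after high light, against 0.724, 1.43 and 4.64 CPM under high CO2. The high light levels of the lines overlapped, and the log2 change was 6.95 (SE 0.638, edgeR adjusted p = 4.96e-06) in cat2 gox2 and 6.65 (SE 0.627, adjusted p = 9.43e-06) in cat2 gox1. WRKY18 (AT4G31800) had 20.1, 58.0 and 27.6 CPM in cat2 gox2 after high light, against 8.89, 6.83 and 7.71 CPM under high CO2. In cat2 gox1 WRKY18 had 22.1, 17.1 and 27.6 CPM after high light, against 6.88, 6.79 and 10.8 CPM under high CO2. It rose by a log2 of 2.17 (SE 0.364, adjusted p = 0.000406) in cat2 gox2 and 1.44 (adjusted p = 0.0058) in cat2 gox1, with library 2 of cat2 gox2 after high light above the other 2. WRKY60 (AT2G25000) had 4.46, 4.79 and 4.95 CPM in cat2 gox2 after high light, against 3.94, 2.75 and 7.96 CPM under high CO2. In cat2 gox1 WRKY60 had 5.16, 2.07 and 8.68 CPM after high light, against 2.59, 3.28 and 11.7 CPM under high CO2. Its groups overlapped and neither response passed (log2 -0.05, adjusted p = 0.956 in cat2 gox2; log2 -0.15, adjusted p = 0.851 in cat2 gox1). Without the number 3 libraries of both high CO2 groups its values were positive, 0.59 (adjusted p = 0.269) and 0.98 (adjusted p = 0.0836).

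**Figure D2:**
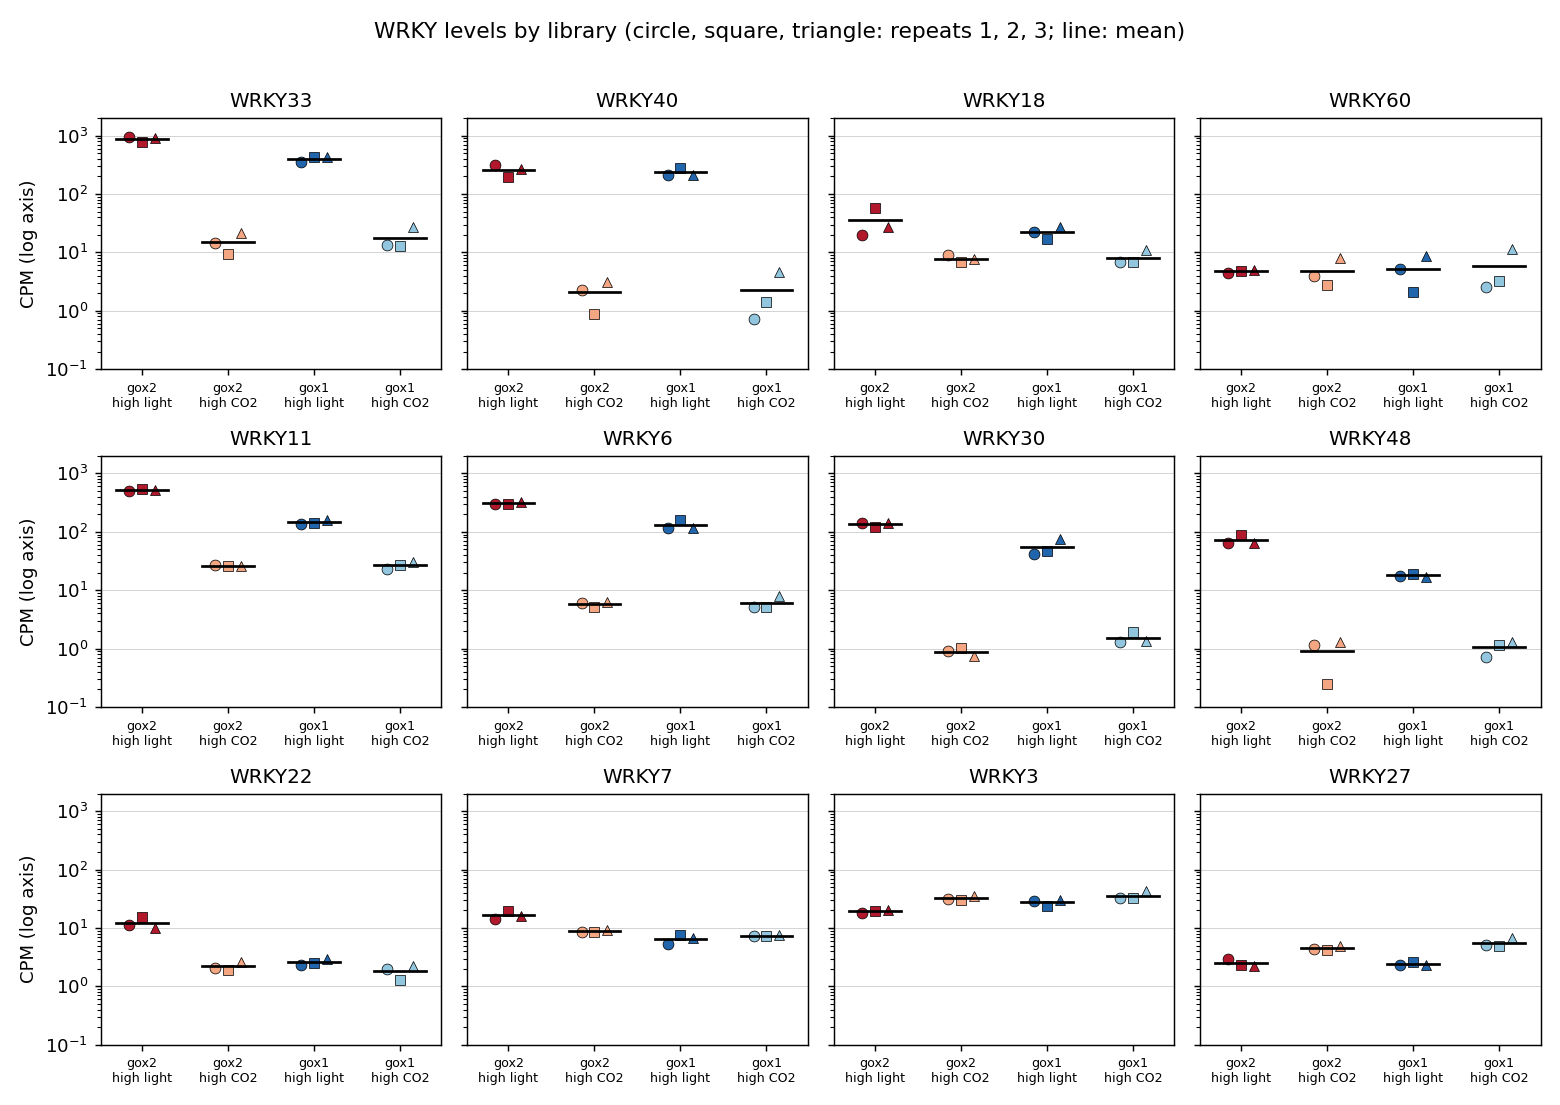
Levels of 12 WRKY genes in CPM on a log axis in the 4 groups, 1 point per library (circle, square and triangle for repeats 1, 2 and 3) and the mean as a line. WRKY33 reached 959 CPM after high light, WRKY60 overlapped between all groups, WRKY22 and WRKY7 were highest in cat2 gox2 after high light, and WRKY3 and WRKY27 were lower after high light.

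WRKY members tied to mitochondrial and oxidative stress all rose. These were WRKY15, WRKY30, WRKY40 and WRKY63, 4 of 4 in each line, beside 27.7% and 25.6% of all genes called higher. Their median log2 change was 7.09 in cat2 gox2 and 5.92 in cat2 gox1. WRKY63 was tested only because of its high light libraries, so a rise in at least 1 line was built into its part. WRKY30 (AT5G24110), a group III member that raises tolerance of oxidative stress, had 144, 121 and 141 CPM in cat2 gox2 after high light, against 0.894, 1.03 and 0.737 CPM under high CO2. Its cat2 gox1 libraries had 42.2, 46.2 and 76.8 CPM after high light, against 1.29, 1.89 and 1.35 CPM under high CO2. The lines did not overlap after high light, and the log2 change was 7.24 (SE 0.294, edgeR adjusted p = 1.6e-08) in cat2 gox2 and 5.18 (SE 0.266, adjusted p = 1.67e-07) in cat2 gox1. WRKY63 (AT1G66600), known as an activator of the alternative oxidase gene AOX1A and of abscisic acid responses, had 19.5, 13.6 and 19.96 CPM in cat2 gox2 after high light, against 0.105, 0.0492 and 0.0982 CPM under high CO2. In cat2 gox1 WRKY63 had 13.4, 35.0 and 21.9 CPM after high light, against 0.103, 0.0462 and 0.476 CPM under high CO2. Only 5 and 15 counts lay behind its high CO2 levels in cat2 gox2 and cat2 gox1, and its log2 changes of 7.63 (SE 0.630, adjusted p = 2.27e-06) and 6.67 (SE 0.542, adjusted p = 3.27e-06) are uncertain to that extent.

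WRKY63 is a neighbour of WRKY64 and WRKY67, group III genes on the plus strand of chromosome 1 that start at 24848320, 24833518 and 24828502 (TAIR10.1). WRKY67 (AT1G66550) had 1.895, 1.53 and 1.30 CPM in cat2 gox2 after high light and no count in the 3 high CO2 libraries. In cat2 gox1 it had 2.41, 5.99 and 2.11 CPM after high light and again no count under high CO2. It was thus at least 30.9-fold higher after high light in cat2 gox2 (101 counts against 0) and at least 75.8-fold higher in cat2 gox1 (236 counts against 0), taking 3 counts over the group as the floor. WRKY64 had 3 and 9 counts after high light in cat2 gox2 and cat2 gox1 and none under high CO2. Of the 50-base words of WRKY67, 0.248% also occur in WRKY64, so few reads could have been placed on either gene.

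Of 8 members with roles in senescence 6 rose in cat2 gox2 and 4 in cat2 gox1, beside the 27.7% and 25.6% of all genes called higher. Of 5 members of phosphate and boron nutrition 3 rose in cat2 gox2 and 4 in cat2 gox1. WRKY42 and WRKY75 are among these 5, and WRKY75 also among the 8 of senescence. Both were tested only because of their high light libraries, so a rise in at least 1 line was built into their part. WRKY6 (AT1G62300), a senescence factor that also represses the phosphate exporter gene PHO1, had 302, 301 and 319 CPM in cat2 gox2 after high light, against 6.10, 5.11 and 6.29 CPM under high CO2. In cat2 gox1 its levels were 116, 157 and 116 CPM after high light, against 5.07, 5.12 and 8.06 CPM under high CO2. Every high light library of cat2 gox2 was above every one of cat2 gox1, and WRKY6 rose by a log2 of 5.72 (SE 0.226, edgeR adjusted p = 1.48e-08) in cat2 gox2 and 4.41 (SE 0.213, adjusted p = 1.24e-07) in cat2 gox1. WRKY75 (AT5G13080), which acts in phosphate starvation and leaf senescence, had 21.7, 10.3 and 23.4 CPM in cat2 gox2 after high light, against 0, 0 and 0.393 CPM under high CO2. In cat2 gox1 WRKY75 had 26.8, 21.6 and 8.05 CPM after high light, against 0.103, 0 and 0.794 CPM under high CO2. The lines overlapped in both conditions, and its high CO2 counts lay mostly in the number 3 libraries, so the log2 changes of 7.05 (adjusted p = 0.000111) and 5.83 (adjusted p = 0.00021) rest on few reads. WRKY42, which represses PHO1 as WRKY6 does, passed in cat2 gox1 (log2 2.52, adjusted p = 0.000904) and not in cat2 gox2 (log2 0.66, adjusted p = 0.211).

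Of the members of salicylate and pathogen defence, 10 of 12 tested rose in cat2 gox2 and 8 of 12 in cat2 gox1, beside 27.7% and 25.6% of all genes. None of the 12 fell, beside 29.2% and 26.5% of all genes. WRKY28 is among the 12 and was tested only because of its high light libraries. WRKY48 (AT5G49520), a stress-inducible member of group IIc that dampens basal defence, had 64.0, 88.7 and 63.4 CPM in cat2 gox2 after high light, against 1.16, 0.246 and 1.28 CPM under high CO2. Line cat2 gox1 had 17.7, 19.3 and 17.1 CPM after high light, against 0.724, 1.15 and 1.31 CPM under high CO2. It rose in both lines (log2 6.33, SE 0.382, edgeR adjusted p = 2.31e-07 in cat2 gox2; log2 4.06, adjusted p = 5.48e-06 in cat2 gox1), with no overlap of the lines after high light. WRKY28 (AT4G18170), an activator of the salicylate synthesis gene ICS1, had 8.71, 16.1 and 8.24 CPM in cat2 gox2 after high light, against 0.158, 0.148 and 0.589 CPM under high CO2. In cat2 gox1 WRKY28 had 3.997, 3.04 and 2.65 CPM after high light, against 0.259, 0.185 and 0.397 CPM under high CO2. The high light libraries of cat2 gox2 were all above those of cat2 gox1, and library 2 was the highest of them. WRKY70, a salicylate-responsive factor that holds back senescence, was the most abundant member per length under high CO2, at 29.5 CPM per kb in cat2 gox2 and 35.2 CPM per kb in cat2 gox1. It passed in cat2 gox2 (log2 1.4, adjusted p = 0.0039) and not in cat2 gox1 (log2 0.74, adjusted p = 0.0786), where it did pass with the repeat as a block.

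Few members fell, and those that did fell little. WRKY44 (AT2G37260), known for trichome and seed coat development, had 2.72, 1.20 and 3.25 CPM in cat2 gox2 after high light, against 5.68, 3.69 and 7.66 CPM under high CO2. In cat2 gox1 it had 2.92, 1.61 and 3.24 CPM after high light, against 4.66, 4.29 and 10.4 CPM under high CO2. The groups did not overlap within a line, and the log2 change was -1.24 (SE 0.454, edgeR adjusted p = 0.0357) in cat2 gox2 and -1.31 (adjusted p = 0.0288) in cat2 gox1. Leaving out single libraries ended the call of WRKY44 in 4 of 12 fits in cat2 gox2 and 3 of 12 in cat2 gox1. Without the number 3 libraries of both high CO2 groups it was lost in both lines. WRKY27 (AT5G52830), known from symptoms of bacterial wilt, had 2.92, 2.35 and 2.23 CPM in cat2 gox2 after high light, against 4.37, 4.23 and 5.01 CPM under high CO2. In cat2 gox1 WRKY27 had 2.36, 2.58 and 2.36 CPM after high light, against 5.18, 4.89 and 6.75 CPM under high CO2. It fell by 0.86 on the log2 scale in cat2 gox2 (adjusted p = 0.0015) and by 1.20 in cat2 gox1 (adjusted p = 0.000188), again with no overlap within a line.

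WRKY3 (AT2G03340), which acts with WRKY4 in resistance to necrotrophic fungi, had 18.1, 19.7 and 20.6 CPM in cat2 gox2 after high light, against 31.4, 30.4 and 36.0 CPM under high CO2. In cat2 gox1 it had 29.2, 24.1 and 30.4 CPM after high light, against 33.0, 32.6 and 42.3 CPM under high CO2. The groups did not overlap within a line, and WRKY3 fell by 0.74 on the log2 scale in cat2 gox2 (edgeR adjusted p = 0.000709) and by 0.37 in cat2 gox1 (adjusted p = 0.0382), the call in cat2 gox1 being lost with another scaling (RLE), without the filter and with DESeq2. WRKY13, a factor of stem development, averaged 0.472 ± 0.212 CPM in cat2 gox2 after high light, against 1.04 ± 0.273 CPM under high CO2 (SD, n = 3 each). In cat2 gox1 WRKY13 averaged 0.518 ± 0.197 CPM after high light, against 0.995 ± 0.0653 CPM under high CO2. It fell in cat2 gox2 (log2 -1.14, adjusted p = 0.0205) and in cat2 gox1 (log2 -0.93, adjusted p = 0.0488), where the call was lost with the repeat as a block (adjusted p = 0.0566), with RLE scaling, without the filter, with DESeq2, with only the groups compared and in 9 of 12 fits that left out 1 library. In cat2 gox2 such fits ended the call in 3 of 12. WRKY29, a factor of the flagellin response, averaged 0.872 ± 0.385 CPM in cat2 gox2 after high light and 0.870 ± 0.102 CPM under high CO2. In cat2 gox1 WRKY29 averaged 0.659 ± 0.172 CPM after high light and 1.27 ± 0.245 CPM under high CO2, a log2 change of -0.94 (adjusted p = 0.0421) next to -0.01 (adjusted p = 0.979) in cat2 gox2. The difference of these responses did not pass (0.93, adjusted p = 0.612), and the call in cat2 gox1 was lost with RLE scaling, without the filter, with DESeq2 and in 9 of 12 fits that left out 1 library.

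The counts by structural group stand beside 27.7% of all genes called higher and 29.2% called lower in cat2 gox2. In cat2 gox1 these shares were 25.6% and 26.5%. Group III had 9 of 10 tested members higher in cat2 gox2 and 7 of 10 in cat2 gox1, with median log2 changes of 3.20 and 2.75. WRKY41, WRKY55, WRKY63 and WRKY67 are among these 10 and were tested only because of their high light libraries. Of the other 6, 5 rose in cat2 gox2 and 3 in cat2 gox1, with medians of 1.89 and 1.63. In group IIc 7 of 10 rose and 1 fell in cat2 gox2, and 6 rose and 1 fell in cat2 gox1. WRKY28 and WRKY75 are among these 10 and were tested only because of their high light libraries. Of the other 8, 5 rose and 1 fell in cat2 gox2, and 4 rose and 1 fell in cat2 gox1. All 6 tested members of group IId, factors that bind calmodulin, rose in cat2 gox2 and 4 of 6 rose in cat2 gox1. Group I had 3 higher and 2 lower of 10 in each line, with medians of -0.10 and -0.02. In group IIe 1 of 5 rose and 1 fell in cat2 gox2, and 1 rose and 2 fell in cat2 gox1. WRKY50 and WRKY51, the pair among the 60 members with lysine in the heptad, belong to group IIc and act in the salicylate branch that dampens jasmonate signalling. WRKY51 rose by a log2 of 3.07 in cat2 gox2 and 2.45 in cat2 gox1, and WRKY50 by 1.42 (edgeR adjusted p = 0.0181) and 1.39 (adjusted p = 0.0191). Leaving out single libraries ended the call of WRKY50 in 2 of 12 fits in cat2 gox2 and 3 of 12 in cat2 gox1. With only the groups compared it was also lost in cat2 gox1. The members of growth and development, 4 tested of 6, held no rise and 2 falls in each line, WRKY44 and WRKY13. Both lost their calls in some of the alternative fits given above.

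**Figure D3:**
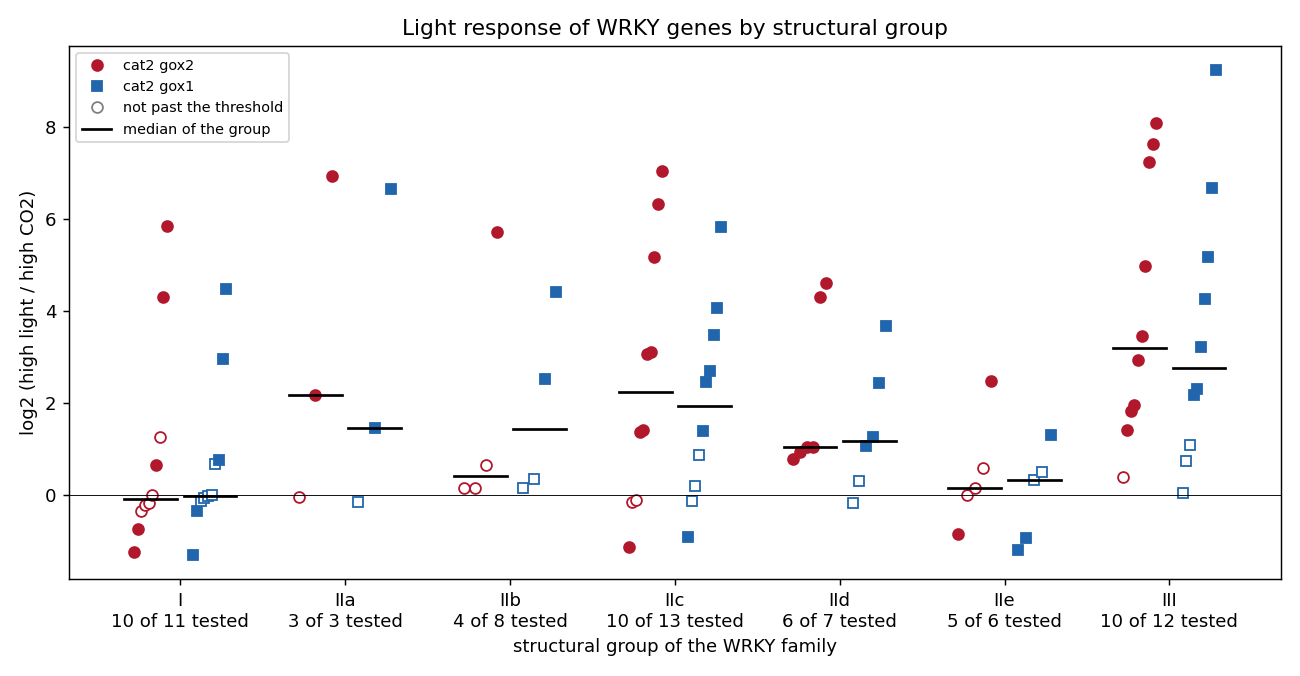
Log2 change after high light relative to high CO2 of the tested members of each structural group, cat2 gox2 (circles) left of cat2 gox1 (squares), filled where the change passed the threshold, with the median as a line. Group III has medians of 3.20 and 2.75, with 4 members tested only because of their high light libraries, and group I has medians near 0 with WRKY33 and WRKY25 far above them.

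After high light the lines differed for 9 members, 8 of them higher in cat2 gox2. The share called higher among all genes tested was 5.27%, and the share called lower was 1.28%. Ordered by size, the members higher in cat2 gox2 were WRKY22, WRKY48, WRKY11, WRKY28, WRKY7, WRKY30, WRKY6 and WRKY15, with log2 differences between 2.22 and 0.91. WRKY3 was lower (log2 -0.52, SE 0.135, edgeR adjusted p = 0.0426), a call that was lost with RLE scaling, without the filter, without all number 3 libraries and in 9 of 12 fits that left out 1 library. Over the 48 members the median difference was 0.08, next to -0.01 over all genes tested.

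WRKY11 (AT4G31550, chr4:15289788-15291934, 3 exons, minus strand) had the smallest SE of these 9 differences. It is a group IId factor known, with WRKY17, as a repressor of basal resistance. It had 499.9, 536 and 518 CPM in cat2 gox2 after high light, against 26.8, 26.0 and 26.3 CPM under high CO2. In the cat2 gox1 line there were 136, 143 and 161 CPM after high light, against 23.5, 26.8 and 31.0 CPM under high CO2. The high light libraries of cat2 gox2 were all above those of cat2 gox1, while the high CO2 libraries overlapped between the lines. After high light the log2 difference was 1.82 (SE 0.124, edgeR adjusted p = 2.25e-05), and under high CO2 it was -0.04.

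WRKY22 (AT4G01250), a flagellin-response and senescence factor of group IIe, had 11.3, 15.6 and 9.82 CPM in cat2 gox2 after high light, against 2.05, 1.92 and 2.65 CPM under high CO2. In cat2 gox1 it had 2.36, 2.53 and 2.95 CPM after high light, against 2.02, 1.29 and 2.26 CPM under high CO2. The high light libraries of cat2 gox2 were far above all others, with a log2 difference from cat2 gox1 of 2.22 (SE 0.237, edgeR adjusted p = 0.000296). In cat2 gox1 the conditions did not overlap either, and the log2 change of 0.49 did not pass (adjusted p = 0.12). WRKY7 (AT4G24240), a calmodulin-binding member of group IId, had 14.4, 19.5 and 16.2 CPM in cat2 gox2 after high light, against 8.68, 8.604 and 9.13 CPM under high CO2. In cat2 gox1 WRKY7 had 5.33, 7.56 and 6.66 CPM after high light, against 7.30, 7.34 and 7.62 CPM under high CO2. The cat2 gox2 libraries after high light were the highest of the 4 groups, and the log2 difference from cat2 gox1 was 1.36 (SE 0.149, adjusted p = 0.000355).

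For the other members called, the log2 difference after high light was 2.00 for WRKY48 (SE 0.290, edgeR adjusted p = 0.002), 1.77 for WRKY28 (SE 0.356, adjusted p = 0.0124) and 1.30 for WRKY30 (SE 0.212, adjusted p = 0.00406). It was 1.24 for WRKY6 (SE 0.185, adjusted p = 0.00226) and 0.91 for WRKY15 (SE 0.198, adjusted p = 0.0187). The call of WRKY15 was lost without all number 3 libraries and in 4 of 12 fits that left out 1 library. That of WRKY28 was lost in 2 of 12 such fits, 1 of them without library 2 of cat2 gox2 after high light. WRKY33 and WRKY25 had differences of 1.14 (SE 0.316, adjusted p = 0.0558) and 1.07 (SE 0.297, adjusted p = 0.0559), and their lines did not overlap, but neither passed. Both passed with the repeat as a block (adjusted p = 0.0147 for WRKY33), with DESeq2, with only the groups compared, without number 3 of the high CO2 groups and without all number 3 libraries. Of the 48 members, 11 (22.9%) had all cat2 gox2 libraries above all cat2 gox1 libraries after high light, beside 15.8% of all genes tested, and 3 (6.25%) had them all below, beside 12.2%. The test called 9 of the 48, beside 6.55% of all genes in either direction.

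**Figure D4:**
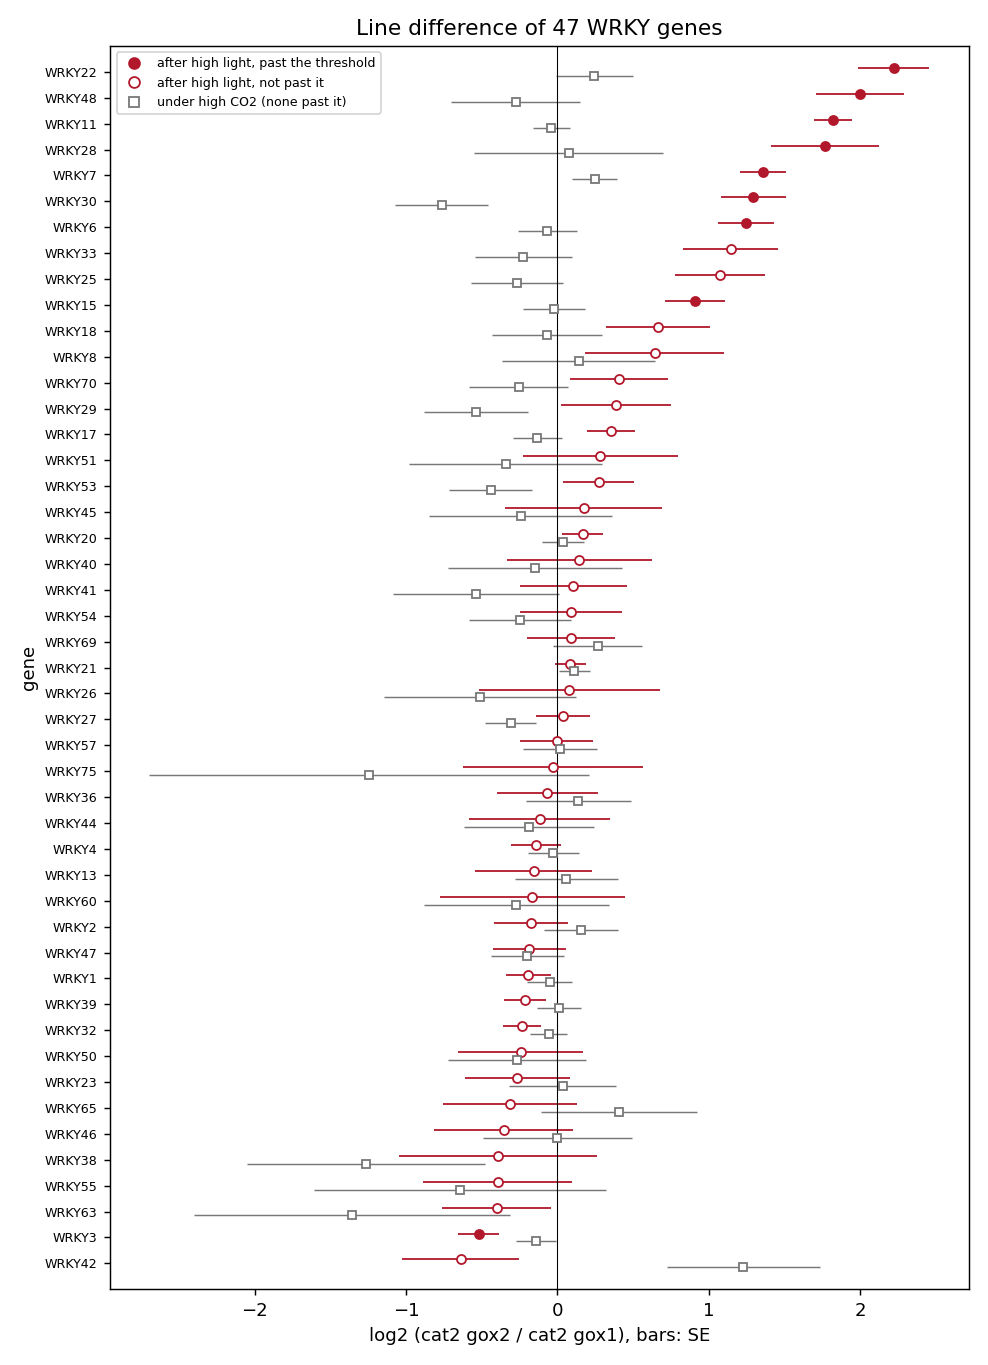
Log2 difference between cat2 gox2 and cat2 gox1 for 47 WRKY genes after high light (circles, filled where past the threshold) and under high CO2 (squares), with bars of 1 SE; WRKY67 is left out because it had no counts under high CO2. Of the circles, 9 are filled, 8 of them to the right of 0, and no square is filled.

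Under high CO2 no member differed between the lines in edgeR's test, with 0 of 48 called higher and 0 lower, against 0.0158% of all genes called higher and 0% called lower. DESeq2 also called 0. At an unadjusted p below 0.05 there were 2 members, WRKY30 at a log2 of -0.76 (SE 0.305) and WRKY42 at 1.23 (SE 0.506), both with an edgeR adjusted p of 1. This does not show that the levels were equal, since the SE of this difference reached 1.45 (WRKY75).

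The light responses themselves differed between the lines for 5 members, all with the larger change in cat2 gox2. These were WRKY30 (log2 difference of the responses 2.06, SE 0.370, edgeR adjusted p = 0.0262), WRKY22 (1.98, SE 0.345, adjusted p = 0.0234), WRKY11 (1.86, SE 0.172, adjusted p = 0.000846), WRKY6 (1.31, SE 0.269, adjusted p = 0.0474) and WRKY7 (1.11, SE 0.21, adjusted p = 0.0356). Of all genes tested, 0.996% were called in this direction and 0.0422% in the other. Part of the value of WRKY30 comes from high CO2, where it averaged 0.888 CPM in cat2 gox2 and 1.51 CPM in cat2 gox1. Those levels rest on 53 and 100 counts, and the line difference there was not called. WRKY48 had the largest difference, 2.27, and did not pass (adjusted p = 0.0705), although it did with DESeq2 and without library 2 of cat2 gox2 under high CO2 (adjusted p = 0.0486). Within repeats 1, 2 and 3 the difference was 1.69, 1.95 and 1.92 for WRKY11, and 2.26, 2.20 and 1.66 for WRKY30. WRKY22 had 2.19, 2.04 and 1.48, WRKY7 had 1.17, 1.13 and 1.01, and WRKY6 had 1.11, 0.94 and 1.81. For each of the 5 the sign was thus the same in 3 of 3 repeats. The 5 were called on these same libraries, so this is no separate support. WRKY33 (1.32, 1.31 and 1.43) and WRKY42 (-1.47, -2.64 and -1.05) also kept their sign and were not called. Leaving out single libraries ended the call in 5 of 12 fits for WRKY22, 7 for WRKY30, 10 for WRKY7 and 11 for WRKY6, and in 0 of 12 for WRKY11.

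The counts that follow stand beside the 27.7% of all genes called higher in cat2 gox2 and 25.6% in cat2 gox1. Of the genes that act with WRKY proteins, all 9 of the MAP kinase cascade listed rose in both lines, with the largest rise for the kinase kinase gene MKK9 (log2 2.19, edgeR adjusted p = 0.000403 in cat2 gox2; 2.09, adjusted p = 0.000709 in cat2 gox1). MPK3, whose product phosphorylates WRKY33, averaged 288 CPM in cat2 gox2 after high light, against 109 CPM under high CO2. Of the VQ proteins, small partners that bind WRKY domains, 5 of 7 tested of 8 rose in each line and none fell. VQ12 had the largest rise, 5.38 in cat2 gox2 (adjusted p = 4.67e-06) and 5.18 in cat2 gox1 (adjusted p = 1.12e-05). SIB2, a partner of WRKY33, had log2 values of -0.02 and -0.41 that did not pass, while its paralogue SIB1 rose by 3.58 and 1.99.

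Of 7 reported targets of WRKY33, 6 rose in each line and none fell. The target lists here and below do not separate activated from repressed targets, so their counts do not show what WRKY proteins did. PAD3, which makes camalexin in its last step, averaged 1177 CPM in cat2 gox2 after high light, against 3.19 CPM under high CO2. In cat2 gox1 the levels were 917 CPM after high light, against 7.98 CPM under high CO2. Its log2 change was 8.53 (edgeR adjusted p = 2.79e-05) in cat2 gox2 and 6.83 (adjusted p = 0.000107) in cat2 gox1. Of 6 tested targets of WRKY18, WRKY40 and WRKY60, 5 rose in cat2 gox2 and 6 in cat2 gox1. The largest rise was that of UPOX, a gene of a mitochondrial protein induced by oxidative stress, at 4.85 (adjusted p = 5.25e-08) and 3.93 (adjusted p = 3.04e-07). AOX1A, the mitochondrial alternative oxidase gene, is repressed by WRKY40 and activated by WRKY63 and averaged 998 ± 69.3 CPM in cat2 gox2 after high light, against 65.997 ± 30.1 CPM under high CO2 (SD, n = 3 each).

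Among 5 tested targets of other members, 3 rose and 1 fell in each line. FRK1, a kinase gene downstream of WRKY22 and WRKY29 in the flagellin response, rose by 5.72 (edgeR adjusted p = 6.52e-06) in cat2 gox2 and 3.83 (adjusted p = 8.2e-05) in cat2 gox1. PHO1, the phosphate exporter gene that WRKY6 and WRKY42 repress, fell by 1.25 on the log2 scale in cat2 gox2 (adjusted p = 0.000186) and by 1.54 in cat2 gox1 (adjusted p = 6.05e-05). The pathogenesis-related gene PR1 did not pass (log2 0.13, adjusted p = 0.916; log2 -0.56, adjusted p = 0.635), and SAG12, a late senescence marker, had no count in any library. Between the lines after high light, 1 of 9 kinases (MEKK1, 0.69), 1 of 7 VQ partners (MKS1, 0.88), 1 of 7 WRKY33 targets (ACS2, 1.43) and 1 of 6 targets of group IIa (UPOX, 0.80) were higher in cat2 gox2, beside 5.27% of all genes. None of these was lower, and 0 of 5 tested targets of other members were called.

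**Figure D5:**
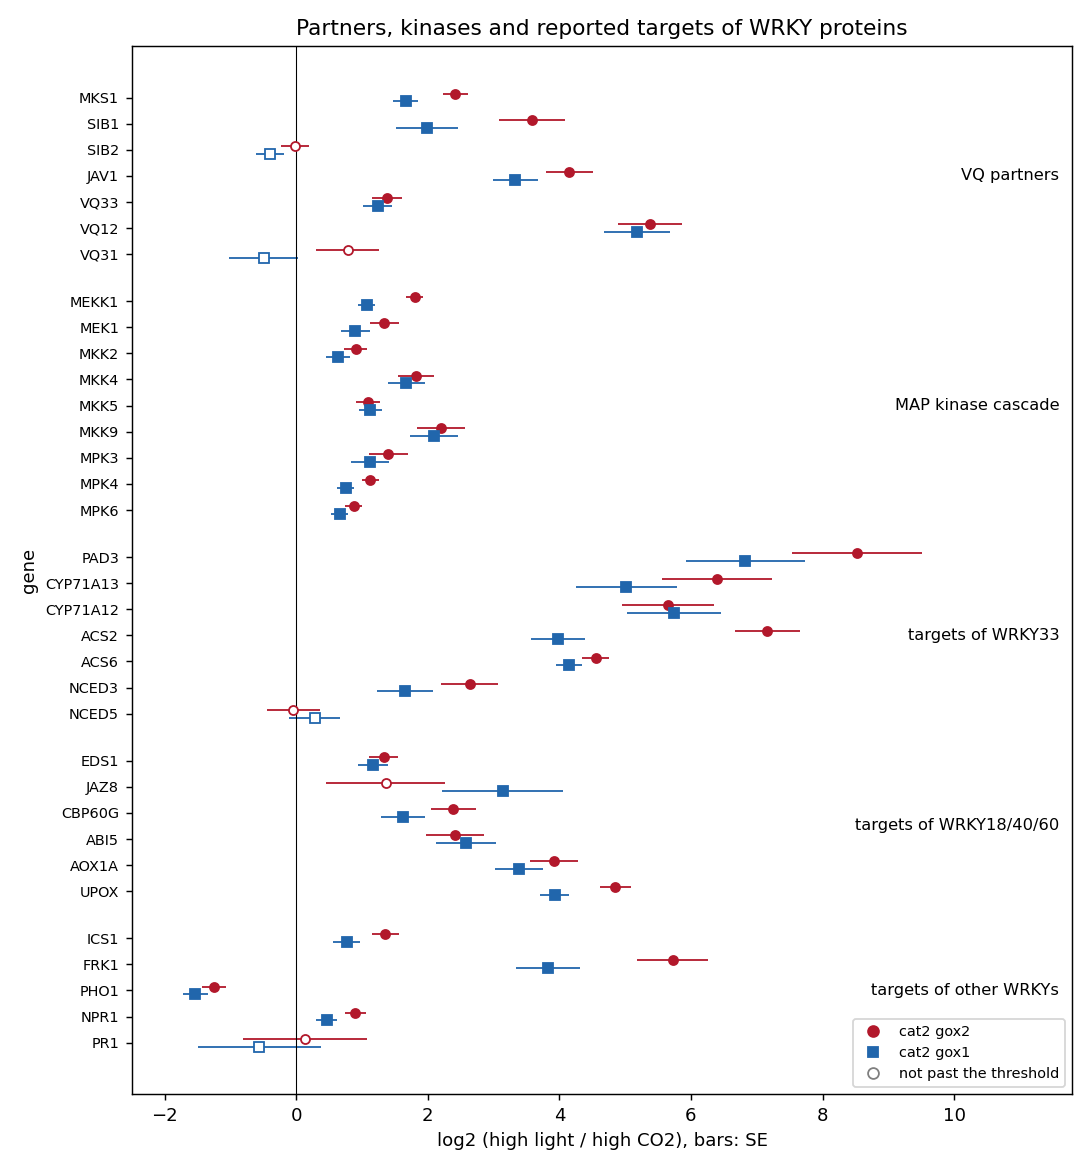
Log2 change after high light relative to high CO2, with bars of 1 SE, of VQ partners, MAP kinase genes and reported WRKY targets in cat2 gox2 (circles, above) and cat2 gox1 (squares, below), filled where past the threshold. All 9 kinase genes lie to the right of 0, PAD3 is farthest right at 8.53 and 6.83, and PHO1 is at -1.25 and -1.54.

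Reads from the opposite strand bear on a few members. There were 11 members that overlap another annotated gene, all on opposite strands, and whether the counting used strand is not given in the sources used here. Of the 50-base words of WRKY41, 39.3% are shared with its neighbour AT4G11080, which itself rose in cat2 gox2 (log2 1.46, edgeR adjusted p = 0.00921) and had -0.07 (adjusted p = 0.892) in cat2 gox1. WRKY41 rose by 2.94 (adjusted p = 0.000239) and 2.29 (adjusted p = 0.000975), and the share of its counts that came from the neighbour was not tested. For WRKY53 the shared part is 18.02%, and its neighbour AT4G23800 had log2 values of -0.66 (adjusted p = 0.14) and -0.45 (adjusted p = 0.303) that did not pass, against rises of 4.97 and 4.26 for WRKY53. For WRKY40 the shared part is 2.43%, and its neighbour AT1G80850 had -0.58 (adjusted p = 0.0779) and fell by 1.34 in cat2 gox1 (adjusted p = 0.00163).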

How the data were processed

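Messenger RNA of pooled leaves was sequenced from stranded libraries, per the labels' protocols. Per the submitters' processing notes, the authors used Trim Galore 0.3.3, TopHat2 2.1.0, featureCounts of Subread 1.4.6 and the TAIR10 build. They deposited raw, unnormalized read counts for each gene. Whether counting used strand or reads with more than 1 alignment is not given in the sources used. The deposited table has 33604 entries. The 2 that name no gene were left out.

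Counts were fitted in R 4.3.3 with edgeR 4.0.16, using filterByExpr by the 4 groups (minimum count 10, minimum total 15), TMM scaling and all 12 libraries together. That left 18967 genes with 99.96% of counts and a biological coefficient of variation of 0.211. The 5 comparisons set high light against high CO2 in each line, cat2 gox2 against cat2 gox1 in each condition, and the difference of the light responses. Each used the two-sided quasi-likelihood test, adjusted by Benjamini-Hochberg over all genes, with a threshold of 0.05. The SE is the log2 change divided by the square root of F, and is less reliable at low counts. Lower bounds on a fold use a floor of 3 counts over a group and cover counting error alone, since the labels name no molecular identifiers. P-values measure the spread between 3 pools of plants a group.

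The labels say that the set-up was repeated as a whole, so equal numbers mark a shared repeat. Deviations of same-numbered libraries from their group means correlated between -0.21 and 0.76 over genes. Alternatives were RLE and upper-quartile scaling, no filter, a stricter filter (1 CPM), DESeq2 1.42.0, the repeat as a block, only the groups compared, and leaving out libraries.

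The members and lists were chosen with earlier results of these data known. Genes given by library are those with the largest log2 rises and falls past the threshold in each comparison, at most 6 each way, those called in the difference of the responses, group IIa and WRKY33. Of each list the largest rise and fall are given. Other genes named in the text are examples chosen after their values were seen. Symbols of all 60 members were matched in RefSeq (TAIR10.1), whose coordinates are given; 50-base words were compared on both strands.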

Additional observations from a re-analysis of the deposited data

Results flagged for a closer look

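The light responses of 5 members differed between the lines in edgeR's test of that difference (log2 change in cat2 gox2 minus log2 change in cat2 gox1). WRKY30 differed by 2.06 and WRKY22 by 1.98. WRKY11 differed by 1.86, WRKY6 by 1.31 and WRKY7 by 1.11. In each case the change was larger in cat2 gox2. It was so in 3 of 3 repeats, which are the libraries that gave the calls. WRKY11 kept its call in every alternative run, with adjusted p between 0.00171 and 0.00541 when single libraries were left out. Without the number 3 libraries of both high CO2 groups, WRKY11 kept its call (1.72, adjusted p = 0.0033) and the other 4 lost theirs.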

How the results depend on the processing

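No called result changed direction under any alternative run. Values of group IIa and WRKY33 that did not pass the test in any of these fits did change sign. For WRKY60 the change in cat2 gox2 was 0.0031 with RLE scaling, 0.0048 with DESeq2, 0.136 with the repeat as a block, 0.595 without number 3 of the high CO2 groups and 0.567 without all number 3 libraries. In cat2 gox1 it was 0.978 and 0.385 in the last 2 settings. Its line difference after high light was 0.0362 with the block and 0.370 without all number 3 libraries. Without number 3 of the high CO2 groups and without all number 3 libraries, the line difference under high CO2 was 0.215 and 0.204 for WRKY18, 0.525 and 0.515 for WRKY40, and 0.199 and 0.188 for WRKY60. The difference of the responses was -0.401 and -0.437 for WRKY40, and -0.383 for WRKY60 in the first of these settings. Leaving out 1 library at a time gave WRKY60 changes of -0.333 to 0.500 in cat2 gox2 and -0.701 to 0.872 in cat2 gox1. The line difference after high light then ran from -0.0174 to 0.304 for WRKY40 and from -0.548 to 0.384 for WRKY60. Under high CO2 it ran from -0.188 to 0.201 for WRKY18, -0.566 to 0.234 for WRKY33, -0.572 to 0.951 for WRKY40 and -0.820 to 0.746 for WRKY60. The difference of the responses ran from -0.787 to 0.716 for WRKY40 and from -0.892 to 0.655 for WRKY60.

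Upper-quartile scaling moved the median log2 change of all genes to -0.31 in cat2 gox2 and -0.21 in cat2 gox1, and the share of higher calls among all calls to 35.9% and 38.1%, against 48.7% and 49.2% with TMM. Under it 27 members rose and 6 fell in cat2 gox2, and 24 rose and 5 fell in cat2 gox1. With the repeat as a block, the calls gained were WRKY2 and WRKY26 in cat2 gox2, WRKY70 in cat2 gox1, and WRKY25 and WRKY33 between the lines after high light. WRKY13 in cat2 gox1 was lost, and no other member's call changed.

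In cat2 gox1 the count of falls was 2 with RLE scaling, 2 without the filter, 2 with DESeq2, 3 with only the groups compared, and 1 both without number 3 of the high CO2 groups and without all number 3 libraries. Those 2 settings gave medians of 1.67 and 1.67 in cat2 gox2, and 1.77 and 1.60 in cat2 gox1. For the difference of the responses they gave 2 and 2 calls, with medians of -0.0663 and 0.0479 against 0.34 with all libraries, and the median line difference under high CO2 was 0.0886 without number 3 of the high CO2 groups, against -0.10 with all libraries. No member was lower in cat2 gox2 after high light with RLE scaling, without the filter or without all number 3 libraries (0 in each). The cause was not tested.

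Leaving out 1 library at a time gave 26 to 30 rises, 2 to 4 falls and a median of 1.07 to 1.58 in cat2 gox2, and 23 to 29 rises, 1 to 5 falls and a median of 0.87 to 1.67 in cat2 gox1. Between the lines it gave 6 to 10 higher, 0 to 1 lower and a median of -0.04 to 0.14 after high light, and 0 to 0 calls and a median of -0.30 to 0.20 under high CO2. For the difference of the responses it gave 1 to 5 calls and a median of -0.21 to 0.61, with the single call, WRKY11, left without library 1 of cat2 gox2 or of cat2 gox1 under high CO2. Where a library was left out, its group was taken to vary like the others. The difference of the responses has no fit with only the groups compared, since it uses all 4. Members with few counts, such as WRKY75 and WRKY63 under high CO2, have their size limited by depth.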
